A study of Mus musculus with 24 samples.

Results

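Medium and high PAC were compared in lipopolysaccharide-stimulated macrophages: 3 arrays titled PAC medium DP with LPS were set against 3 arrays titled PAC high DP with LPS, which are 6 of the 24 arrays of the series. Proanthocyanidins (PAC) are polyphenol polymers of flavan-3-ol units, and these fractions came from grape pomace and differed in mean degree of polymerization, called medium or high here as in the labels. RAW 264.7 cells, a transformed mouse macrophage line, received 15 µg/mL of 1 fraction for 30 min and then 500 ng/mL of lipopolysaccharide (LPS) for 6 h (medium PAC + LPS and high PAC + LPS, 3 arrays each). The other groups used here were medium PAC and high PAC at the same dose without LPS (resting cells), LPS without PAC and an untreated control, again with 3 arrays each. The low PAC and low PAC + LPS groups, with 3 arrays each, entered the shared estimate of spread but no comparison here. All cells came from this 1 line, and both fractions were given at equal mass, so the number of polymer molecules was not equal. Total RNA was hybridised to mouse gene expression arrays, and the values are log2 signals as deposited. The labels number the replicates without saying whether they were separate cultures, and the p-values therefore reflect the spread among arrays, which may be technical.

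LPS is a component of the outer membrane of Gram-negative bacteria. It is read by TLR4 with CD14 and MD-2, and the signal runs through NF-kB and MAP kinases to a first wave of cytokine and chemokine genes. Secreted cytokines then act back on the macrophage through JAK-STAT signalling, and the ERK branch is held in check by dual specificity phosphatases. Lysosomes, acidified by the vacuolar proton pump (V-ATPase), degrade what macrophages engulf, and many of their genes can be switched on together by the MiT/TFE transcription factors.

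The 6 arrays were of like quality. Gene medians ran from 4.95 to 5.06, signal over background (positive minus negative control median) from 6.14 to 6.44, and 52.2 to 53.3% of gene features lay above the silent level. The silent level, 4.73, was the 95th percentile of 1412 olfactory and vomeronasal receptor features. Correlations were 0.9915 to 0.9919 within medium PAC + LPS, 0.989 to 0.9906 within high PAC + LPS and 0.9864 to 0.9891 between them. The cells carried their labelled identity, since all 13 measured macrophage markers were above the silent level and their mean level reached 14.15 over the medium PAC + LPS arrays and 14.26 over the high PAC + LPS arrays. Of the markers of other cells, 1 of 10 for neutrophils, 1 of 10 for lymphocytes, 3 of 7 for dendritic cells, 2 of 7 for fibroblasts and 1 of 7 for epithelium were above it in either group. In 320 features a group mean passed 16, more than a 16-bit scanner pixel can hold on the log2 scale, so the deposited values are not plain log2 pixel intensities, and differences below are on the deposited scale. The number of arrays limits the precision.

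The transcriptomes of the 2 groups differed under LPS. Of 22206 gene features, 1192 (5.37%) were called, meaning a limma adjusted p under 0.05, with 658 (2.96%) higher and 534 (2.4%) lower in medium PAC + LPS than in high PAC + LPS. Differences of at least 1 log2 unit were called in 454 features (2.04%) and were more often downward, with 201 higher (0.905%) and 253 lower (1.14%). The largest difference upward was 3.01 (Dio2) and the largest downward -5.19 (Timp1). Of the 12008 features above the silent level in either group, 8936 (74.4%) had a 95% interval wholly within 1 log2 unit of 0, and the median half-width of these intervals was 0.42. The 3 medium and 3 high values did not overlap in 1169 of the called features and in 4597 of all features. The 14 largest differences named below in each direction were drawn from called features without overlap, so their lack of overlap is no added support. The split by direction depended on the fit: centring each array on its gene median gave 843 higher and 424 lower, while a fit to the 12 arrays with LPS gave 296 higher and 366 lower, and a fit to the 6 arrays alone 71 higher and 132 lower. Without high PAC + LPS replicate 3 the features called higher numbered 399, and without medium PAC + LPS replicate 3 they numbered 433.

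**Figure D1:**
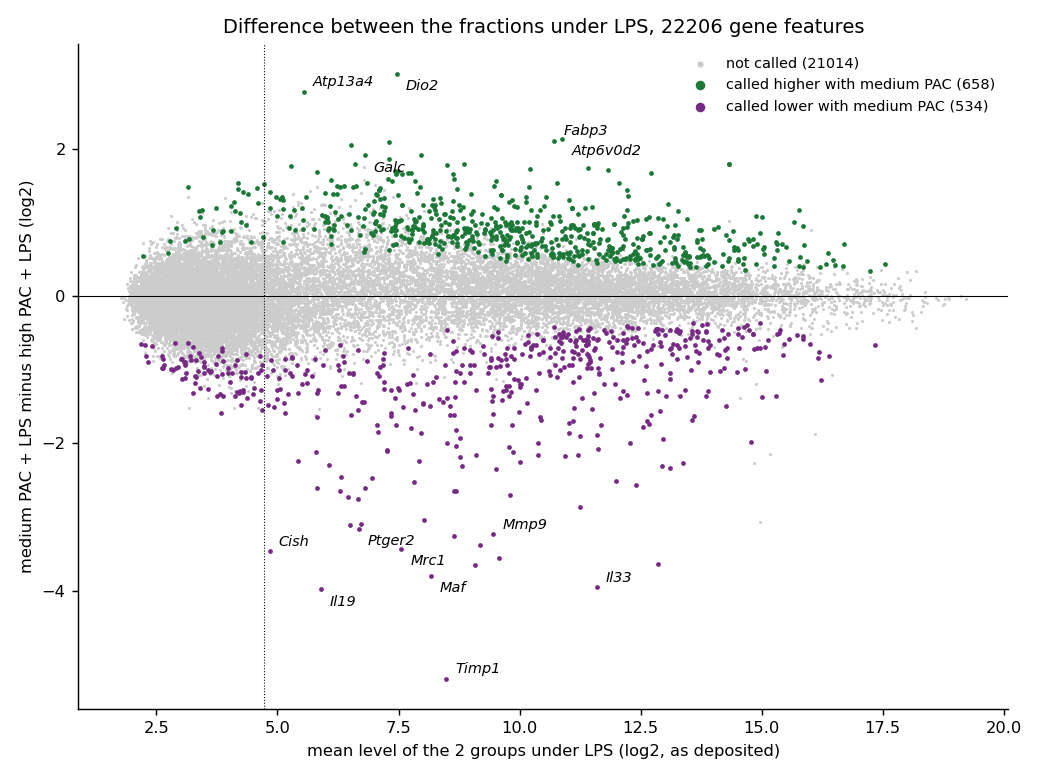
Difference between medium PAC + LPS and high PAC + LPS (log2, vertical axis) against the mean level of the 2 groups (log2, horizontal axis) for each of 22206 gene features, 3 arrays per group. The dotted line is the silent level of 4.73, and the 534 features called lower reach -5.19 while the 658 called higher reach 3.01.

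Genes lower in medium PAC + LPS were mostly genes that LPS alone raised. LPS raised 2992 features over control (13.5%) and lowered 4501 (20.3%). Of the 534 features lower in medium PAC + LPS, 318 (59.6%) were LPS-raised and 66 (12.4%) LPS-lowered. Of the 658 features higher in medium PAC + LPS, 420 (63.8%) were LPS-lowered and 83 (12.6%) LPS-raised. These comparisons share no arrays, and the counts are a description with no test. Against LPS alone, medium PAC + LPS differed in 3251 features (14.6%), with 1593 higher (7.17%) and 1658 lower (7.47%), and high PAC + LPS in 2238 (10.1%), with 963 higher (4.34%) and 1275 lower (5.74%). Both of these use the same 3 LPS arrays.

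Of the secreted mediators, 6 of 26 measured cytokines and growth factors (23.1%) were lower in medium PAC + LPS and none was called higher. Their median difference was -0.52, against 0.006 over all features. Over all features 2.4% were called lower and 2.96% higher, and the list counts below are to be read beside these shares. Il33, an alarmin of the IL-1 family, stood at 9.45, 10.02 and 9.38 in medium PAC + LPS, against 13.35, 13.51 and 13.84 in high PAC + LPS. The difference was -3.95 (95% interval -4.66 to -3.25, limma adjusted p = 2.4e-07). LPS alone gave 14.81, 15.10 and 14.60, so both fractions left Il33 lower than LPS did.

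Csf2, which encodes the myeloid growth factor GM-CSF, read 5.28, 6.40 and 5.47 in medium PAC + LPS and 8.17, 8.19 and 8.21 in high PAC + LPS. The groups did not overlap, and the difference was -2.47 (-3.27 to -1.67, limma adjusted p = 3.3e-04). Il10, the anti-inflammatory cytokine, was at 11.35, 11.27 and 11.23 in medium PAC + LPS and at 13.08, 13.36 and 13.41 in high PAC + LPS. Its difference was -2.0 (-2.47 to -1.52, limma adjusted p = 1.1e-05), again without overlap. Lif, a cytokine of the IL-6 family, differed by -1.62 and Il18, an inflammasome-released cytokine, by -0.92 (limma adjusted p = 0.0047 and 0.0035). Il27 made the sixth at -1.04, but its call was lost when medium PAC + LPS replicate 2 or high PAC + LPS replicate 3 was left out (largest adjusted p 0.074).

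Il19, an IL-10 family cytokine outside that list, was among the genes with the largest differences. It read 4.17, 4.03 and 3.52 in medium PAC + LPS, all under the silent level, and 8.10, 7.56 and 8.0 in high PAC + LPS. The difference of -3.98 (-4.53 to -3.42, limma adjusted p = 1.8e-08) is limited in size by that floor. LPS alone gave 9.74, 9.66 and 9.43.

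**Figure D2:**
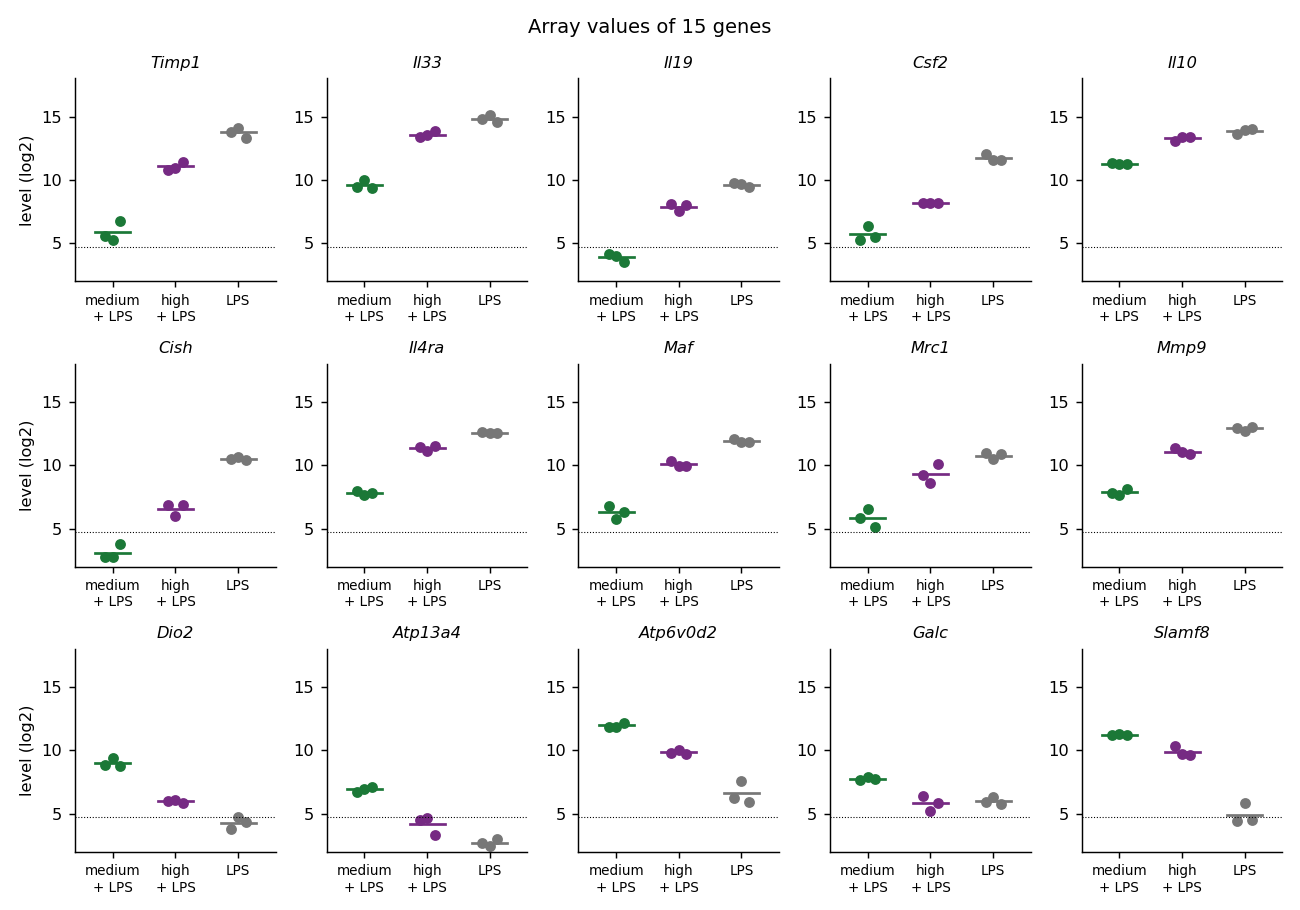
Level of 15 genes (log2, vertical axis) in each of the 3 arrays of medium PAC + LPS, high PAC + LPS and LPS (points) with the group mean (bar). The dotted line is the silent level of 4.73. No medium array overlaps a high array in any panel, which was a condition of choice for the panels other than Csf2, Il10 and Slamf8. Il19 and Cish lie under the silent level in all 3 medium arrays.

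The classical acute cytokines gave a mixed picture. The study screened the fractions by IL-6 protein secreted over a longer incubation, whereas these values are mRNA at 6 h. Il6 was at 12.50, 12.57 and 12.72 in medium PAC + LPS and at 13.89, 13.89 and 14.04 in high PAC + LPS, against 15.45, 15.60 and 15.82 with LPS alone. The medium arrays lay below the high arrays by -1.34 (-2.37 to -0.31), but this was not called (limma adjusted p = 0.14). Il1b, a pyrogenic cytokine, differed by -1.87 (-4.31 to 0.58, limma adjusted p = 0.44), with 15.18, 15.07 and 15.27 in medium PAC + LPS and 16.89, 17.09 and 17.14 in high PAC + LPS.

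The wide intervals of these genes came with uneven resting arrays, where Il1b ran from 5.02 to 9.39 with medium PAC (replicates 1 and 2 low, 3 high) and from 4.95 to 11.92 with high PAC. Those arrays enter the shared estimate of spread. In the fit to the 12 arrays with LPS, Il6 and Il1b were called (limma adjusted p = 3.0e-04 and 5.0e-05). Of the 118 named genes 112 were called in the reported fit, mostly as a condition of choice, so few could gain a call. In the 12-array fit these 2 calls were gained and 27 lost, among them Slamf8 (limma adjusted p = 0.11) and Osmr (0.073). Over whole lists, cytokines called lower rose from 6 to 9 in that fit, while lysosomal hydrolase and membrane protein genes called higher fell from 16 to 9. The fit to the 6 compared arrays gained 2 and lost 60, among them Tlr4 (limma adjusted p = 0.14), Cxcl3 (0.072), Ccl6 (0.13) and Il6ra (0.055). Tnf, the first-wave cytokine, was at 18.22, 18.05 and 18.23 in medium PAC + LPS and at 17.88, 17.84 and 17.83 in high PAC + LPS. It was not called (0.32, 0.09 to 0.55, limma adjusted p = 0.12), although it passed the threshold with a variance trend (adjusted p = 0.0049) and with only features above the silent level tested (0.037).

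Chemokine genes were lower in 5 of 20 measured and higher in none, with a median of -0.13. Cxcl3, a neutrophil attractant, read 8.76, 7.51 and 7.81 in medium PAC + LPS and 10.02, 9.73 and 10.82 in high PAC + LPS (-2.16, limma adjusted p = 0.004), and Ccl6 differed by -1.37 (adjusted p = 0.0017). The other calls, Ccl12, Cxcl11 and Ccl17, each failed in 3 or 4 of the 6 fits that left out 1 array, so that without medium PAC + LPS replicate 1 only 2 chemokines were called. Ccl3 stood at 19.20 in medium PAC + LPS and 19.24 in high PAC + LPS, with an interval of -0.43 to 0.35. The highest value on any array was 19.26, so Ccl3 lay at the top of the scale in both groups and a difference there may not be measurable. Interferon-stimulated genes gave 0 calls in either direction among 39 measured, with a median of -0.04, and the interval lay within 1 log2 unit of 0 for 26 of them.

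On the receiving side of cytokine signalling, 8 of 35 measured JAK-STAT components and feedback genes were lower in medium PAC + LPS and 2 were higher. Cish, a STAT5-induced inhibitor of cytokine receptors, was at 2.76, 2.78 and 3.77 in medium PAC + LPS, under the silent level, against 6.84, 5.97 and 6.89 in high PAC + LPS. The difference was -3.46 (-4.00 to -2.93, limma adjusted p = 4.6e-08), and LPS alone gave 10.44, 10.63 and 10.42. Il4ra, the shared receptor chain for IL-4 and IL-13, read 7.93, 7.68 and 7.80 in medium PAC + LPS and 11.46, 11.11 and 11.49 in high PAC + LPS, a difference of -3.55 (-4.06 to -3.04, limma adjusted p = 1.9e-08).

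Both were among the 14 largest differences downward, which were chosen without overlap. Il6ra, the ligand-binding chain of the IL-6 receptor (-1.38), the kinase Jak2 (-0.86) and the transcription factor Stat3 (-0.75) were lower as well, with limma adjusted p of 5.7e-05, 0.0037 and 0.003. Stat5a (-0.59), Il13ra1 (-0.69) and Osmr (-1.48) were lower but lost the call in 3, 1 and 1 of the 6 fits without 1 array. Il7r, the IL-7 receptor chain, was higher at 13.75, 13.94 and 13.86 in medium PAC + LPS, against 12.73, 12.73 and 12.63 in high PAC + LPS (1.15, limma adjusted p = 3.5e-04), and Il10rb, a chain of the IL-10 receptor, was higher by 0.46 (adjusted p = 0.0098).

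Toll-like receptor and adaptor genes differed less in size than the JAK-STAT genes, from -1.04 to 0.78. The share called was not much lower, at 23.8% against 28.6%. Tlr4, the LPS receptor, was at 10.77, 10.80 and 10.90 in medium PAC + LPS and at 11.65, 11.30 and 11.86 in high PAC + LPS, a difference of -0.78 (-1.08 to -0.48, limma adjusted p = 0.0018). Tlr8, an RNA sensor (-1.04), and the adaptor Tirap (-0.59) were also lower, and Tlr13, a sensor of bacterial ribosomal RNA, was higher (0.78, limma adjusted p = 0.0041). In all, 4 of 21 measured Toll-like receptor and adaptor genes were lower and 1 was higher, although the median of the list was above 0 at 0.15. Rab7b, a small GTPase of late endosomes, had overlapping arrays and an interval of -0.39 to 0.30.

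Of 22 measured NF-kB genes, 3 were lower and 2 higher. Bcl3, an atypical nuclear IkB protein, differed by -1.94 (-2.38 to -1.49, limma adjusted p = 7.4e-06), with 12.08, 12.06 and 11.85 in medium PAC + LPS and 13.99, 13.84 and 13.97 in high PAC + LPS. The feedback inhibitors Tnip3 (-0.81) and N4bp1 (-0.94) were lower too. The 2 higher calls, Traf1 and Bcl2a1b, each failed in 5 of the 6 fits without 1 array.

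**Figure D3:**
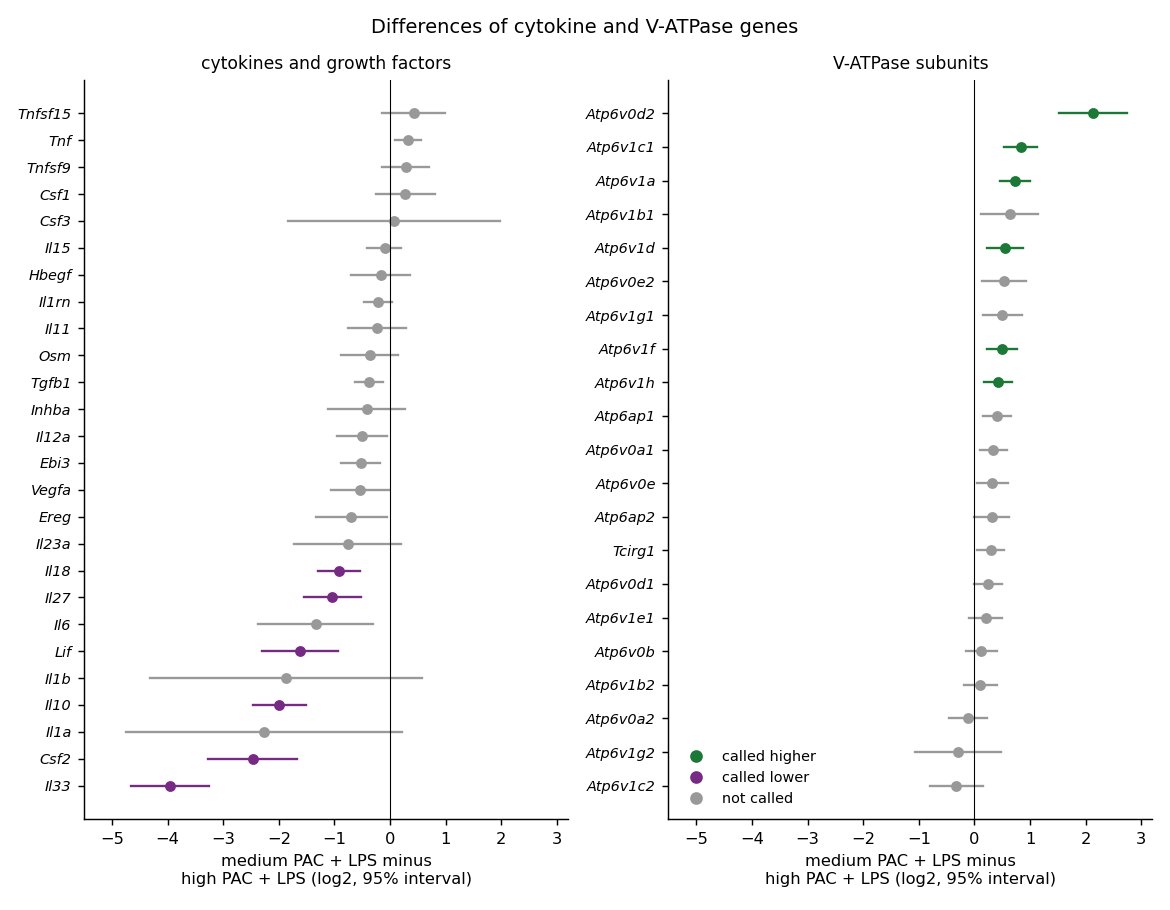
Difference between medium PAC + LPS and high PAC + LPS (log2, horizontal axis; points, with lines for the 95% interval) for 26 cytokine and growth factor genes (left) and 21 V-ATPase genes (right), from 3 arrays per group. Of the cytokines 21 lie below 0 and 6 are called lower, and of the V-ATPase genes 18 lie above 0 and 6 are called higher.

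Genes of the ERK feedback loop were lower in 8 of 21 measured and higher in 2, with a median of -0.46. Dusp6, the phosphatase that switches off ERK, was at 8.03, 8.45 and 8.91 in medium PAC + LPS and at 11.24, 10.98 and 11.26 in high PAC + LPS (-2.70, -3.11 to -2.28, limma adjusted p = 4.0e-08). Dusp2, a nuclear MAP kinase phosphatase, read 8.07, 8.53 and 8.45 in medium PAC + LPS and 10.55, 10.61 and 10.88 in high PAC + LPS (-2.34, limma adjusted p = 2.4e-07).

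Both genes were without overlap. Dusp1, which acts on p38 and JNK, differed by -0.66 (adjusted p = 0.0014), whereas Dusp4, a phosphatase of the same family, was higher by 0.85 (adjusted p = 0.0017). The count of 8 was less firm than these genes: without medium PAC + LPS replicate 3 it was 3, since Phlda1, Spred3, Dusp5, Spred1 and Spred2 lay near the threshold.

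Immediate early genes were lower in 7 of 33 measured and higher in none. Leaving out 1 array gave 5 to 8 lower, and Klf4 and Zfp36 lost the call in 4 and 3 of the 6 such fits. Zfp36l1, which binds AU-rich elements and hastens mRNA decay, was at 4.92, 5.58 and 5.40 in medium PAC + LPS and at 7.89, 8.0 and 8.26 in high PAC + LPS (-2.75, -3.15 to -2.36, limma adjusted p = 1.8e-08). Egr1, a zinc finger factor induced through ERK, differed by -1.77, the AP-1 member Fosl2 by -1.39 and Ier2 by -1.27 (limma adjusted p = 2.2e-05, 0.0082 and 3.0e-05). Atf3, a stress-induced repressor, overlapped between the groups at 14.83, 14.90 and 14.93 in medium PAC + LPS and 14.95, 14.67 and 14.96 in high PAC + LPS (0.03, -0.28 to 0.34).

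Matrix and tissue remodelling genes held the largest single difference. Timp1, an inhibitor of matrix metalloproteinases, read 5.60, 5.27 and 6.78 in medium PAC + LPS and 10.80, 10.98 and 11.45 in high PAC + LPS, against 13.75, 14.13 and 13.33 with LPS alone. The difference of -5.19 (-6.36 to -4.03, limma adjusted p = 5.9e-06) set all 3 medium arrays well below the high ones. Mmp9, a gelatinase, was at 7.78, 7.65 and 8.10 in medium PAC + LPS and at 11.33, 11.02 and 10.87 in high PAC + LPS (-3.23, limma adjusted p = 6.7e-06).

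The collagenase Mmp13 (-2.24) and the macrophage elastase Mmp12 (-1.35) were lower too, Mmp13 with its medium mean of 4.31 under the silent level. In all 6 of 22 measured genes of this list were lower and 1, the urokinase gene Plau, was higher (1.22, limma adjusted p = 0.0072). Tnc, which encodes the matrix glycoprotein tenascin-C, was lower by a like amount outside the list: 11.11, 11.24 and 10.73 in medium PAC + LPS and 14.70, 14.58 and 14.73 in high PAC + LPS (-3.64, limma adjusted p = 7.4e-06).

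Of the 13 measured macrophage markers, 2 were lower in medium PAC + LPS, 2 were higher and the median was -0.03. The antibody receptor Fcgr1 (-1.49) and the integrin Itgam (-0.99) were the lower ones and kept the call without any 1 array, while Aif1 (1.04) and Mpeg1 (0.49) were higher but lost it in 4 and 3 of those 6 fits. Maf and Mrc1, outside that list, were among the 14 largest differences downward. Maf, a transcription factor of differentiated macrophages, stood at 6.74, 5.77 and 6.30 in medium PAC + LPS and at 10.32, 9.93 and 9.94 in high PAC + LPS (-3.80, -4.33 to -3.26, limma adjusted p = 1.8e-08). Mrc1, the mannose receptor, read 5.84, 6.53 and 5.15 in medium PAC + LPS and 9.23, 8.55 and 10.05 in high PAC + LPS (-3.43, limma adjusted p = 5.6e-05). In both genes LPS alone lay above either fraction, with means of 11.87 for Maf and 10.74 for Mrc1.

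Ptger2, a receptor for prostaglandin E2, differed by -3.16 (limma adjusted p = 1.2e-06), the serotonin receptor Htr1b by -3.38 (adjusted p = 1.2e-09), the gap junction gene Gja1 by -3.25 (adjusted p = 2.5e-07) and the endothelial lipase gene Lipg by -3.11 (adjusted p = 2.4e-05). S100a8, a calcium-binding alarmin also found in neutrophils, was at 6.77, 8.04 and 6.96 in medium PAC + LPS and at 10.95, 10.76 and 10.99 in high PAC + LPS (-3.65, limma adjusted p = 1.5e-06). The other 9 measured neutrophil markers were at or below the silent level in both groups. Cd80, a costimulatory ligand for T cells, was at 12.30, 12.34 and 12.10 in medium PAC + LPS and at 14.45, 14.45 and 14.64 in high PAC + LPS (-2.27, limma adjusted p = 2.4e-07), 1 of 4 costimulatory and checkpoint genes of 16 that were lower.

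Called lysosomal genes mostly went the other way. Of 43 measured lysosomal hydrolase and membrane protein genes, 16 were higher in medium PAC + LPS and 2 lower, with a median of 0.27, and of 21 V-ATPase genes 6 were higher and none called lower, with a median of 0.34. The counts rested on small differences: leaving out 1 array gave 9 to 13 lysosomal genes and 3 to 6 V-ATPase genes, and 3 of these 6 V-ATPase calls (Atp6v1d, Atp6v1f and Atp6v1h) failed in at least 4 of the 6 such fits. The lowest count of 9 came without medium PAC + LPS replicate 1.

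Atp6v0d2, a subunit of the proton pump's membrane sector in macrophages and osteoclasts, read 11.86, 11.85 and 12.13 in medium PAC + LPS and 9.75, 9.99 and 9.71 in high PAC + LPS, against 6.25, 7.60 and 5.91 with LPS alone. The difference was 2.13 (1.52 to 2.74, limma adjusted p = 1.0e-04). The cytosolic subunits Atp6v1c1 (0.83) and Atp6v1a (0.73) were higher with adjusted p of 8.7e-04 and 0.0012.

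Galc, the lysosomal galactosylceramidase, was at 7.64, 7.85 and 7.76 in medium PAC + LPS and at 6.43, 5.22 and 5.87 in high PAC + LPS (1.91, limma adjusted p = 3.7e-04). Smaller differences without overlap were those of the galactosidase Gla (1.04), the sialic acid transporter Slc17a5 (1.01), the glucosidase Gaa (0.80), the cholesterol transporter Npc1 (0.76), the glucuronidase Gusb (0.71), the protease Tpp1 (0.66) and the saposin precursor Psap (0.58), with limma adjusted p of 6.9e-05 to 0.0033. Ctsc, the protease that activates granule serine proteases, went against the list with 13.70, 13.90 and 13.80 in medium PAC + LPS and 15.62, 15.77 and 15.94 in high PAC + LPS (-1.98, limma adjusted p = 8.2e-09). Ctsb did not pass the test, with an interval of -0.10 to 0.32.

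Of 22 measured MiT/TFE factors and targets, 6 were higher and 1 lower. The count of 6 was 3 without high PAC + LPS replicate 2, and Neu1, Flcn and Ostm1 lost the call in 3, 4 and 2 of the 6 fits without 1 array. Gpnmb, a membrane glycoprotein induced by these factors, was at 16.40, 16.29 and 16.36 in medium PAC + LPS and at 15.25, 15.11 and 15.20 in high PAC + LPS (1.17, 0.93 to 1.40, limma adjusted p = 1.6e-06). The chloride transporter Clcn7 (0.74) and the vesicle adaptor Plekhm1 (0.80) were higher with adjusted p of 0.0053 and 0.0075. The factor Mitf itself was the gene lower, by -0.66 (limma adjusted p = 0.0031), while Tfeb gave 0.09 (-0.49 to 0.67) and Tfe3 -0.33 (adjusted p = 0.18). Among 39 autophagy genes only Bnip3l, a mitophagy receptor, was called (0.76, limma adjusted p = 4.2e-04), and Sqstm1 (-0.07 to 0.39) and Map1lc3b (-0.14 to 0.66) had overlapping arrays. The share called in this list, 2.56%, was under the 5.37% over all features.

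The 8-base palindrome TCACGTGA holds the E-box core TCACGTG of the element that MiT/TFE factors bind, and the core was looked for on both strands in the 250 bases before the start of each gene in the RefSeq promoter table (GRCm38.p6). It was present in 3.6% of 27025 genes. Of the 27 genes called higher in these 3 lysosomal lists 22 had a promoter in the table and 6 of them held the core (27.3%). Of the 57 other measured members 50 had a promoter and 9 held it (18%), and this difference was not tested. The 9 were Atp6v0b, Cln3, Fnip1, Hif1a, Lamp1, Lgmn, Mcoln1, Rragc and Sgsh. Over all 84 measured members 72 had a promoter and 15 held the core (20.8%). The lists include MiT/TFE targets, so a share above 3.6% can come from the choice of lists and does not bear on the fractions. The stretches around the matches in the 6 genes called higher are shown to let the sites be seen, with matched letters in capitals. In the palindrome the matches on the 2 strands overlap by all but 1 base each.
Atp6v1a, minus strand, chr16:44139363-44139412: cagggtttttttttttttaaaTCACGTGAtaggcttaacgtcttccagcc
Clcn7, plus strand, chr17:25133341-25133390: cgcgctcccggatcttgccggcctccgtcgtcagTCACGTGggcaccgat
Ctsa, plus strand, chr2:164833723-164833772: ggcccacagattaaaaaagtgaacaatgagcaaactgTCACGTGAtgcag
Gaa, plus strand, chr11:119267800-119267849: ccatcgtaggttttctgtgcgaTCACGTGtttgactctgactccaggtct
Gla, minus strand, chrX:134601189-134601238: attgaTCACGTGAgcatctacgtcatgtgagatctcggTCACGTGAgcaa
Naglu, plus strand, chr11:101069998-101070047: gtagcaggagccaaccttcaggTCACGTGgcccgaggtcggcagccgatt
Gla carried the palindrome in 2 places. The difference was 0.73 for Atp6v1a, 0.74 for Clcn7, 0.80 for Gaa and 1.04 for Gla, and these calls held without any 1 array. Ctsa (0.41) lost its call in 6 and Naglu (0.68) in 4 of those 6 fits. A match is a description of letters and not a bound site.

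The single largest difference upward was in Dio2, the deiodinase that makes active thyroid hormone. It read 8.80, 9.37 and 8.75 in medium PAC + LPS and 6.01, 6.04 and 5.85 in high PAC + LPS, a difference of 3.01 (2.35 to 3.67, limma adjusted p = 4.9e-06). LPS alone gave 3.83, 4.70 and 4.35, under the silent level. The promoter of Dio2 held the cyclic AMP response element TGACGTCA, which is its own reverse complement, in the stretch below, and 1.8% of 27025 genes had it in the 250 bases before the start. It is shown because this gene led the upward differences, with the match in capitals.
Dio2, minus strand, chr12:90739105-90739154: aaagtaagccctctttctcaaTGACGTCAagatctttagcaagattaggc
Of the 14 genes with the largest differences upward, 10 had a promoter in the table, and Dio2 was the 1 that held this element.

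The following genes were also among the 14 largest differences upward. Atp13a4, a P5-type ATPase, was at 6.72, 6.98 and 7.07 in medium PAC + LPS and at 4.49, 4.64 and 3.34 in high PAC + LPS, under the silent level (2.77, 2.15 to 3.40, limma adjusted p = 6.3e-06). Fabp3, a fatty acid binding protein, read 11.82, 11.71 and 11.78 in medium PAC + LPS and 9.70, 9.58 and 9.71 in high PAC + LPS (2.11, adjusted p = 5.7e-06). Gnpda1, a glucosamine-6-phosphate deaminase, was at 12.35, 12.20 and 12.33 in medium PAC + LPS and at 10.34, 10.93 and 10.40 in high PAC + LPS (1.74, adjusted p = 1.3e-05).

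Genes entered these 14 only if their arrays did not overlap. Hvcn1, a voltage-gated proton channel (2.09), and the neuronal-type enolase Eno2 (2.05) also led, with limma adjusted p of 4.1e-04 and 1.0e-04. Prss46 (1.91) lost its call without medium PAC + LPS replicate 2. Slamf8, a SLAM family receptor of myeloid cells, was at 11.22, 11.26 and 11.18 in medium PAC + LPS and at 10.31, 9.72 and 9.60 in high PAC + LPS, against 4.40, 5.81 and 4.47 with LPS alone. Its difference of 1.34 (0.66 to 2.03, limma adjusted p = 0.018) was lost without medium PAC + LPS replicate 2 (adjusted p = 0.055), high PAC + LPS replicate 2 (0.059) or high PAC + LPS replicate 3 (0.081).

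Scavenger, lectin and SLAM family receptors, by which macrophages sense and take up ligands, split by member, with 5 of 24 measured higher in medium PAC + LPS, 2 lower and a median of 0.04. Colec12, a scavenger receptor with a collagen-like stalk, was at 15.11, 15.15 and 15.09 in medium PAC + LPS and at 14.38, 14.38 and 14.35 in high PAC + LPS (0.75, 0.53 to 0.96, limma adjusted p = 9.2e-05). Clec4n, the lectin Dectin-2, was lower beside Mrc1, with 10.62, 10.40 and 10.67 in medium PAC + LPS and 11.59, 11.50 and 11.40 in high PAC + LPS (-0.94, limma adjusted p = 0.0011). These 2 calls held without any 1 array. Of the other higher calls beside Slamf8, Ly9 (0.74), Cd48 (1.07) and Clec4e (0.44), the lectin Mincle, lost the call in 1, 3 and 5 of the 6 such fits. Without high PAC + LPS replicate 3 the higher calls of this list numbered 1. Of 18 receptors for chemokines, formyl peptides and lipid mediators 3 were lower and 2 higher, and the higher calls, Gpr183 and Ptafr, failed in 5 and 4 of the 6 fits without 1 array.

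Some of the higher genes are known from osteoclasts, into which RAW 264.7 cells can differentiate. Of 13 osteoclast markers, Atp6v0d2, Acp5, Tm4sf19 and Ctsk were higher and Mmp9 was lower. Acp5, the tartrate-resistant acid phosphatase, was at 12.77, 12.62 and 12.67 in medium PAC + LPS and at 10.79 to 11.13 in high PAC + LPS (1.71, 1.34 to 2.09, limma adjusted p = 4.7e-06), and Ctsk, the collagen-degrading cathepsin, differed by 0.92 (adjusted p = 9.9e-04). The calcitonin receptor gene Calcr, a defining marker, was under the silent level in both groups (3.55 and 3.61), and Dcstamp, needed for cell fusion, had overlapping arrays.

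Lipid genes split by direction. Of 30 measured genes of cholesterol and fatty acid synthesis 8 were higher in medium PAC + LPS and none called lower, with a median of 0.40. Both fractions lay below LPS here, with 9 genes called lower and none higher for medium PAC + LPS and 13 lower and none higher for high PAC + LPS. Mvk, mevalonate kinase, was at 6.85, 6.88 and 6.35 in medium PAC + LPS and at 4.88, 5.65 and 5.35 in high PAC + LPS (1.40, limma adjusted p = 0.0049). The count fell to 2 without medium PAC + LPS replicate 1, and Mvk and Sc5d were the genes whose call held in all 6 fits without 1 array.

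Of 24 LXR target and lipid storage genes 4 were lower and 4 higher. Abca1, the cholesterol exporter, was at 10.49, 10.98 and 10.49 in medium PAC + LPS and at 12.46, 12.68 and 12.47 in high PAC + LPS (-1.89, -2.25 to -1.53, limma adjusted p = 6.9e-07), and Mylip, which degrades the LDL receptor, differed by -0.96 (adjusted p = 0.0013). The 4 lower calls held without any 1 array, whereas the 4 higher ones (Fabp4, Plin3, Fabp5 and Plin2) were all lost without high PAC + LPS replicate 3.

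**Figure D4:**
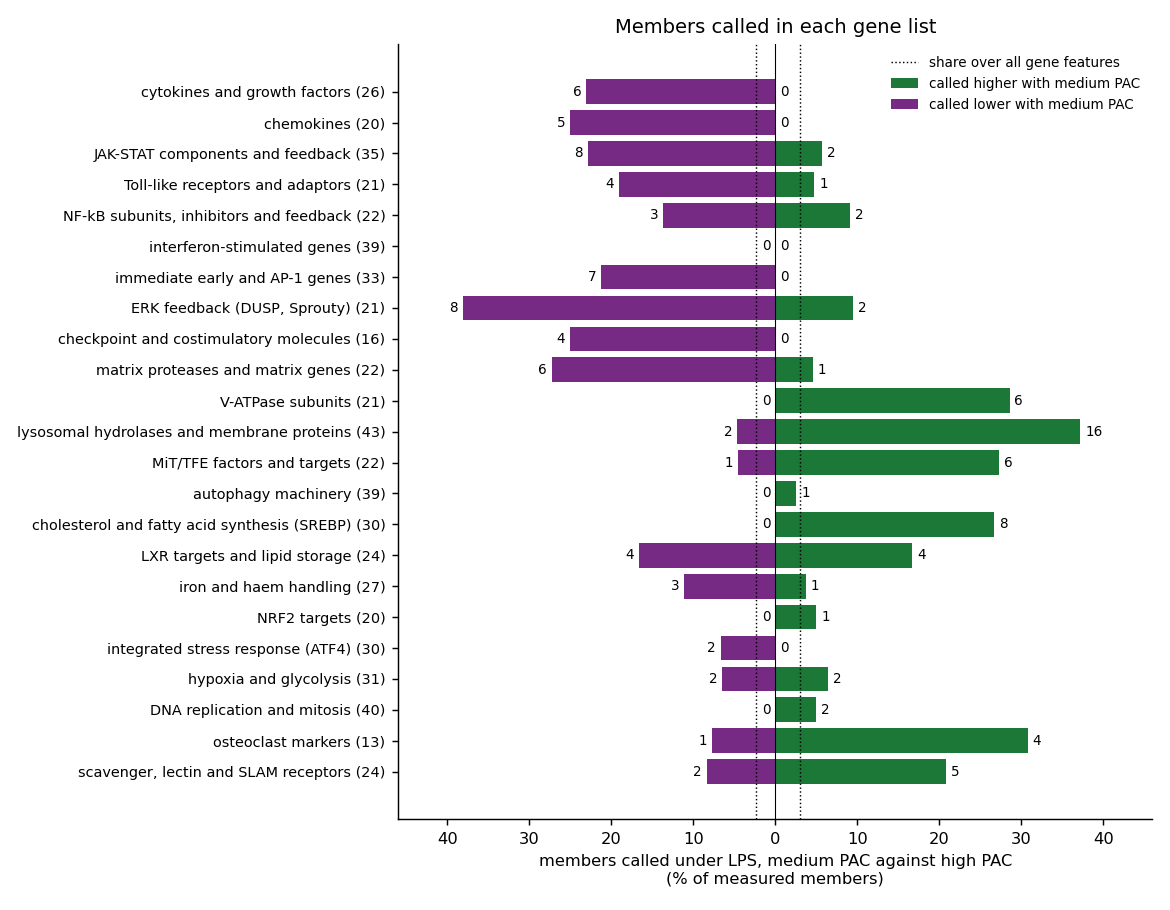
Share of the measured members of 23 gene lists (%, horizontal axis) called higher (to the right) or lower (to the left) in medium PAC + LPS than in high PAC + LPS, with the number called at each bar end and the number measured in brackets. Dotted lines mark the shares over all features, 2.96% higher and 2.4% lower, and the lists of cytokines and ERK feedback lie to the left while V-ATPase and lysosomal genes lie to the right.

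In metabolism, Pfkfb3, which drives glycolysis, was at 11.97, 12.11 and 11.75 in medium PAC + LPS and at 14.27 in each high PAC + LPS array (-2.33, -2.67 to -1.99, limma adjusted p = 2.4e-08), while the 31 measured hypoxia and glycolysis genes gave 2 calls in each direction. Hdc, which makes histamine, was lower by -2.30 (adjusted p = 3.5e-05), and Nos2, the inducible nitric oxide synthase, had overlapping arrays and an interval of -1.31 to 1.12. Alox5, the leukotriene-forming lipoxygenase, was higher by 1.48 and Hpgds, a prostaglandin D synthase, by 0.83 (adjusted p = 3.0e-04 and 0.0011). Ptgs2 was not called, with a wide interval of -2.14 to 1.45.

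Of 27 measured iron and haem genes 3 were lower and 1 higher, with a median above 0 at 0.09. Bach1, a haem-sensing repressor (-1.53), Cp, the ferroxidase ceruloplasmin (-1.41), and the metal importer Slc39a14 (-1.03) were lower, with limma adjusted p of 1.0e-04, 1.0e-05 and 5.3e-04. Lcn2 had the largest difference of the list at -2.14 but was not called. In the fits to the 6 compared arrays and to the 12 arrays with LPS it was called. Nupr1, a stress-induced chromatin factor, was lower by -1.36 (adjusted p = 6.5e-06), 1 of 2 called among 30 integrated stress response genes. NRF2 targets gave 1 call of 20, Gclc, which was lost in each of the 6 fits without 1 array. Replication and mitosis genes gave 2 calls of 40, both higher, and without medium PAC + LPS replicate 3 none was called. Their median was 0.27, with 36 differences above 0 and 4 below, so small upward differences prevailed although few were called. In these 3 lists the share called was near the 5.37% over all features.

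Without LPS the same fractions differed in 504 features (2.27%), with 327 higher (1.47%) and 177 lower (0.797%) in medium PAC than in high PAC. The called sets under LPS and at rest shared 203 features, 17% of the set under LPS and 40.3% of the resting set, of which 123 were higher and 74 lower in both. Atp6v0d2 (1.98 at rest), Dio2 (2.33) and Gpnmb (1.06) were higher in both, and Il10 (-1.22), Dusp6 (-1.04) and Fcgr1, the high-affinity antibody receptor (-1.67 at rest and -1.49 under LPS), were lower in both.

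The gap between the fractions itself differed between LPS-stimulated and resting cells in 232 features (1.04%) by the limma interaction, more negative with LPS in 158 (0.712%) and more positive in 74 (0.333%). Of the 158, 115 were lower in medium PAC + LPS than in high PAC + LPS, and LPS alone had raised 99 of these. Maf had a resting gap of 0.55 and a difference of the gaps of -4.35 (limma adjusted p = 4.9e-06), and Il19 a resting gap of 0.00 and a difference of -3.98 (adjusted p = 1.2e-05). Both were under the silent level in resting cells, with means of 4.20 and 3.65 for Maf and 3.01 and 3.00 for Il19 in medium PAC and high PAC, so no resting gap could be measured for them. The same held for 31 of the 232 features, 28 of them more negative with LPS and 3 more positive, and in these the difference of the gaps mostly restates the gap under LPS.

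Genes expressed in both states also differed in their gaps. Pfkfb3, at 10.06 in medium PAC and 9.76 in high PAC at rest, had a difference of the gaps of -2.63 (limma adjusted p = 5.6e-06). Alox5 was lower at rest, with 8.96, 8.83 and 9.02 in medium PAC and 10.30, 10.56 and 10.39 in high PAC, but higher under LPS, with 7.18, 7.55 and 7.16 in medium PAC + LPS and 6.07, 6.11 and 5.29 in high PAC + LPS. Its gaps of -1.48 and 1.48 differed by 2.96 (limma adjusted p = 4.4e-05). Atf3 showed a gap at rest, 13.17, 13.02 and 13.01 in medium PAC against 11.84, 11.28 and 11.76 in high PAC, and its overlap under LPS made the difference of the gaps -1.41 (adjusted p = 0.0012). Only the 6 features Ptpn1, Tspan14, Cd164, Slc16a10, Pde2a and Alox5 were called in opposite directions with and without LPS, and they are named after their values were seen.

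**Figure D5:**
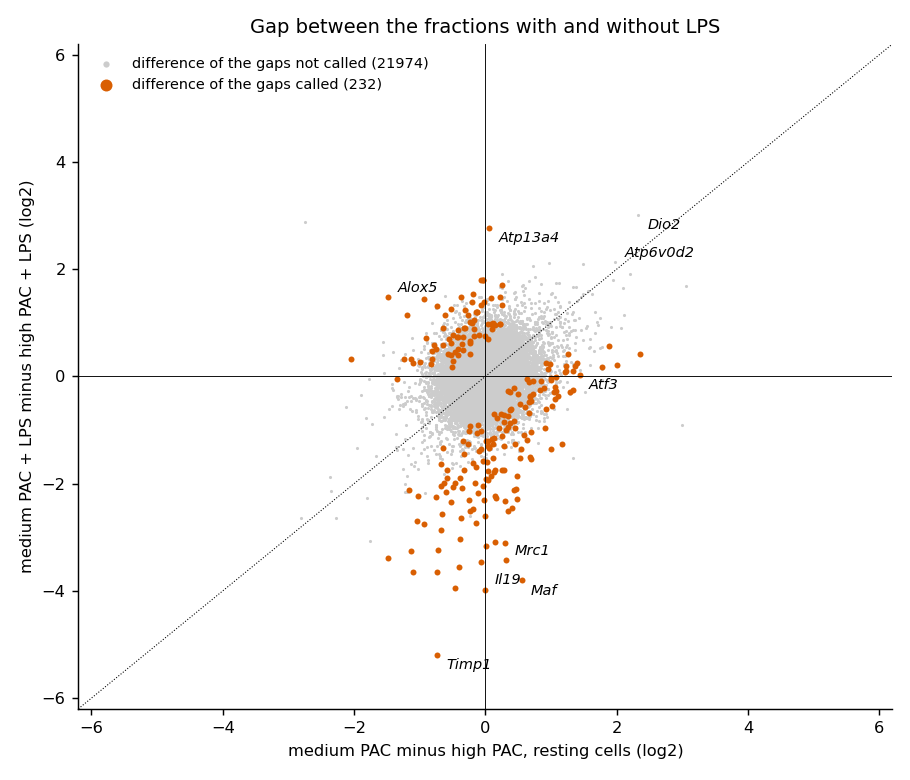
Difference between medium PAC + LPS and high PAC + LPS (log2, vertical axis) against the difference between medium PAC and high PAC in resting cells (log2, horizontal axis) for 22206 gene features, 3 arrays per group. The 232 features whose gaps differ are coloured, the dotted line marks equal gaps, and Alox5 lies at -1.48 at rest and 1.48 under LPS.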

How the data were processed

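RNA of RAW 264.7 cells was measured on 24 arrays in 8 groups of 3. Per feature, the deposited table holds the log2 signal that the authors summarised and normalized, after labelling with a whole-transcript kit and use of Transcriptome Analysis Console. The steps of summarisation and background correction were not given in the sources used here. No further normalization was applied. Of the features, 6640 array controls were left out, and 19572 of the 22206 gene features (88.1%) had a single symbol.

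Tests used limma 3.58.1 in R 4.3.3 on all 24 arrays, with 1 mean per group (16 residual and 3.39 prior degrees of freedom) and Benjamini-Hochberg adjustment over all gene features. The procedure was tested on simulated data with normal noise and, per gene, the same spread in all groups. Spread that differs between groups, as described for Il1b, was therefore not covered by that simulation. All differences are medium minus high unless said. An exact permutation test of 3 against 3 arrays cannot go below 0.1 and was not used for calls. Just 1 pair of fractions was compared under LPS.

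The genes named were the 14 largest differences in each direction among called features without overlapping arrays and above the silent level in at least 1 group, up to 4 called members per list, 11 genes the article discusses and the 6 smallest interaction p-values, 118 in all. Other list members are named as examples or where the call was weak or missing. A list used 1 feature per gene, the one highest over all arrays. Members and lists were chosen with earlier results of these data known. Alternatives were the arrays in the fit, a variance trend, array weights, quantile normalization, median centring, a filter at the silent level, a replicate block and leaving out each array.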

Additional observations from a re-analysis of the deposited data

Results flagged for a closer look

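The gap between medium and high PAC differed between LPS-stimulated and resting cells in 232 features by the limma interaction, and 37 of the named genes were among them. The values below are differences of the gaps, medium minus high under LPS minus the same at rest. In 12 of the 37, Atp13a4, Timp1, Il19, Maf, S100a8, Cish, Mmp9, Ptger2, Lipg, Csf2, Ccl12 and Mmp13, both resting means were at or under the silent level, so no resting gap could be measured and the value mostly restates the gap under LPS. In Mrc1 and Gja1 this held for 1 of the 2 resting groups. Upward stood Alox5 at 2.96, Atp13a4 at 2.71, Tagap at 1.86 and Acp5 at 1.46.

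Downward, the cytokine and growth factor genes were Il19 at -3.98, Il33 at -3.49 and Csf2 at -2.28, the chemokine Ccl12 at -2.43 and the alarmin S100a8 at -2.90. Receptors and signalling genes were Cish at -3.39, Il4ra at -3.15, Ptger2 at -3.17, Htr1b at -1.88, Mrc1 at -3.74, Clec4n at -1.28, Cd80 at -2.43, Bcl3 at -1.98, Dusp6 at -1.65 and Dusp2 at -1.82. Matrix and junction genes were Timp1 at -4.47, Tnc at -2.54, Mmp9 at -2.51, Mmp13 at -2.39 and Gja1 at -2.11. Transcription and RNA factors were Maf at -4.35, Tle3 at -1.92, Zfp36l1 at -1.81, Egr1 at -1.81, Bach1 at -1.64, Atf3 at -1.41 and Ier2 at -1.01. Enzyme and lipid genes were Lipg at -3.41, Pfkfb3 at -2.63, Hdc at -2.29, B4galt5 at -1.59, Ctsc at -1.35 and Abca1 at -1.31. Tle3, a corepressor, was at 11.08, 11.28 and 10.96 in medium PAC + LPS and at 13.66, 13.72 and 13.67 in high PAC + LPS, against a gap of -0.66 at rest.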

How the results depend on the processing

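Among features called under LPS both in the reported fit and in an alternative run, none changed direction. This is little support, since all runs used the same arrays or part of them. The fits to fewer groups, with a variance trend or above the silent level also kept the same group means, so no direction could change there. Lost calls outside the named genes were not checked for direction. Of 1192 calls, the fit to the 12 arrays with LPS kept 626 and the fit to the 6 compared arrays 194. With the 6 arrays alone the features called numbered 203, of which 71 were higher and 132 lower, and 188 differed by at least 1 log2 unit. With the 12 LPS arrays 662 were called and 296 were higher, and array weights left 433 higher. Leaving out 1 array gave 800 to 1077 calls, 399 to 573 higher and 401 to 504 lower, and 396 to 538 of at least 1 log2 unit. The count against LPS ran from 2743 to 2864 for medium PAC + LPS and from 1649 to 2019 for high PAC + LPS. The interaction count of 232 was 69 with only the 12 arrays of its 4 groups, 483 with a variance trend, 440 above the silent level, and 183 to 238 without 1 array. Calls higher made up 55.2% of the total, 66.5% after median centring and 47.3% after quantile normalization.

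The deviations of same-numbered medium and high arrays correlated at 0.0279, 0.0118 and -0.0181, so no shared deviation was seen over the features above the silent level. A batch that acts on few genes could be missed, and the labels do not say whether same-numbered arrays belong together. With the replicate block 1094 features were called, 1067 of them shared, and the interaction gave 220. Over 118 named genes and 14 settings, 1430 of 1652 values stayed on their side of the threshold, 215 lost the call and 7 gained it. As 112 of the 118 were called in the reported fit, few could gain a call. Of 146 called list members 88 kept the call without any 1 array. Values at or under the silent level limit the size of a difference, and the unadjusted p was under 0.05 in 4015 features.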
